A study of Mus musculus with 12 samples.

Results

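Chemokines and their receptors were examined in the lungs of mice kept in low oxygen. The genes were taken by name from the array annotation, as those whose only symbol was Ccl, Cxcl, Ccr or Cxcr with a digit, or was Cx3cl1, Cx3cr1, Xcl1, Xcr1, Ackr1, Ackr2 or Ackr3. This gave 55 of the 22180 genes on the array with 1 symbol, of which 34 were ligands and 21 were receptors. The 6 hypoxia mice breathed 10% oxygen at normal pressure for 3 days, and the 6 normoxia mice breathed 21% oxygen. All were C57BL/6J mice, which the study's methods describe as male and matched for age and weight, and the labels name no genetic change and no further treatment before the terminal anesthetic. RNA came from the left lung lobe, with 1 array for each mouse, so each level was a sum over all cells of the lobe.

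Chemokines are small secreted proteins that bind receptors on leukocytes and other cells and direct their movement along gradients. Most of the receptors signal through inhibitory G proteins, and the atypical receptors instead take up or trap chemokines without such signaling. In the lung, inflammatory chemokines draw monocytes, neutrophils, eosinophils and lymphocytes out of the blood, and others, such as CXCL12, hold cells in their place or guide them in the steady state.

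Levels were on a log2 scale, where a difference of 1 is a change of 2-fold. Hypoxia was compared with normoxia by limma, two-sided, with Benjamini-Hochberg adjustment over all 41155 transcript clusters (groups of probes along 1 transcribed region), and a gene passed where the adjusted p was under 0.05. The number of arrays limits the precision. The array medians were close, from 5.89 to 5.92 in hypoxia and from 5.89 to 5.95 in normoxia. The lobes carried the defining RNA of lung: all 8 genes of a list of surfactant-producing alveolar type 2 cells lay above the median of all clusters, and the mean of the list lay between 11.4 and 11.5 in hypoxia and between 11.6 and 11.7 in normoxia. Of the 8, Etv5 (log2 difference -0.23) and Lpcat1 (-0.22) were lower in hypoxia and 0 were higher.

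Several of the genes that passed are neighbours on a chromosome, so the stretches around their transcription starts are shown to compare them. RefSeq windows of 300 bases on GRCm38.p6, with 250 bases before the start and 50 after it, were matched for 41 of the 55 genes and for 11 of the 16 that passed. Of the neighbours on chromosome 11 these include Ccl8 (chr11:82114935-82115234, plus strand) and Ccl12 (chr11:82101595-82101894, plus strand). From chromosome 8 they include the 3 adjacent genes Ccl22 (chr8:94745434-94745733, plus strand), Cx3cl1 (chr8:94771930-94772229, plus strand) and Ccl17 (chr8:94810203-94810502, plus strand). Cxcl10 (chr5:92348840-92349139, minus strand) is shown for its kappaB matches. Capitals mark a match to the letters TATAAA of a core promoter box or to the kappaB consensus of NF-kappaB. In Ccl17 they mark a form that STAT6 can bind, which is TTC and GAA with 4 bases between them.
Ccl8: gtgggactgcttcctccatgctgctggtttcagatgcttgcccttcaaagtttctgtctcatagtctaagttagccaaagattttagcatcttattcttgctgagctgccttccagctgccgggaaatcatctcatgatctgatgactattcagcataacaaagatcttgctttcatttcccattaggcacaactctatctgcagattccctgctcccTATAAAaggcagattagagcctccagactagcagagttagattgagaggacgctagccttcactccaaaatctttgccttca
Ccl12: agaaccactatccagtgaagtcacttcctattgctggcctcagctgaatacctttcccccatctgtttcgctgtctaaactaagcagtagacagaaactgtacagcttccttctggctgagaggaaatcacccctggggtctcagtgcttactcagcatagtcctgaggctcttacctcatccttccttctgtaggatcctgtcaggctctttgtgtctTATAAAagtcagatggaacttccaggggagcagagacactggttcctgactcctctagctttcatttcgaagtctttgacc
Ccl22: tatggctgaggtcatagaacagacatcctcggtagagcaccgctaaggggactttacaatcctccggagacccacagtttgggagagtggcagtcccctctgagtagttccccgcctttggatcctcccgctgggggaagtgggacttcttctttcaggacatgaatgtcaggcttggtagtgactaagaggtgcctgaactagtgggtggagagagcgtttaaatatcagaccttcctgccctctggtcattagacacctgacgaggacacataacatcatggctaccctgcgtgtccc
Cx3cl1: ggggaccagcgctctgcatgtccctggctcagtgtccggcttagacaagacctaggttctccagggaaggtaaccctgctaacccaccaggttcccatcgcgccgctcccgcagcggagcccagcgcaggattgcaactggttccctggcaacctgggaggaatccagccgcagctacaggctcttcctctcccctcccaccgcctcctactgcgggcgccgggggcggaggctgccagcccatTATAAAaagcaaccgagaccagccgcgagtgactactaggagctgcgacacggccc
Ccl17: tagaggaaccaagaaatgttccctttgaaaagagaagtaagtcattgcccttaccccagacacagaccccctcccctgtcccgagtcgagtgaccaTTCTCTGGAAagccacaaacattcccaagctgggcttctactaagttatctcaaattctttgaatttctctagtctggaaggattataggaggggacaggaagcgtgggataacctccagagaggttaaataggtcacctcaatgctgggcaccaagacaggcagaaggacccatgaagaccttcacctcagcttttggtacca
Cxcl10: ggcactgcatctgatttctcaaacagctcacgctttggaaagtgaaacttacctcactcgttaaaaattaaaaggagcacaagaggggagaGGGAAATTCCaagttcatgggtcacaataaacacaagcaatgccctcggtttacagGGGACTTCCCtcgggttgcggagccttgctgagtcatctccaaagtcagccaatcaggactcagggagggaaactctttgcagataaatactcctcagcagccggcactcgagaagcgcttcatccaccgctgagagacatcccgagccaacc
The TATAAA letters began 32 bases before the start of Ccl8, 31 before that of Ccl12 and 6 before that of Cx3cl1. In Ccl17, the spaced TTC and GAA were matched by TTCTCTGGAA, which began 154 bases before the start. In Cxcl10, the kappaB matches GGGAAATTCC and GGGACTTCCC began 159 and 103 bases before the start.

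Both strands were searched, and a match only describes the letters. TATAAA occurred in 13 of 45 windows of the 55 genes (some genes have several windows), in 6 of the 11 windows of genes that passed, and in 13.6% of all 32851 windows. The kappaB consensus occurred in 10 of the 45 windows, among them those of Ackr2, Ccl9 and Cxcl10, and in 4.51% of all windows. The spaced TTC and GAA occurred in 1 of the 45 windows, that of Ccl17, and in 6.95% of all windows. ACGTG, the core letters that hypoxia-inducible factors bind, occurred in 6 of the 45 windows, in 0 of the 11 windows of genes that passed, and in 19.6% of all windows.

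The monocyte chemoattractant genes Ccl8, Ccl2 and Ccl12 had the 3 largest differences of the 55 genes. In all, 14 genes were higher in hypoxia, 2 were lower and 39 did not pass the test. Over all transcript clusters, 4.47% passed, with 2.77% higher and 1.7% lower, and over the 22180 genes 6.03% passed, with 3.9% higher and 2.14% lower. Levels of 12 of the 55 genes did not overlap between hypoxia and normoxia (10 higher and 2 lower), beside 5.7% of the 22180 genes and 4.03% of all clusters. The median log2 difference was 0.06 over the 55 genes and -0.01 over all genes. Of the ligands, 12 of 34 were higher and 1 was lower, and of the receptors 2 of 21 were higher and 1 was lower. A gene's level can follow the number of cells that carry its RNA or the RNA of each cell, and in whole lung these cannot be told apart. The plot of the change of every gene shows the monocyte chemoattractants at the upper end and most receptors around 0.

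**Figure D1:**
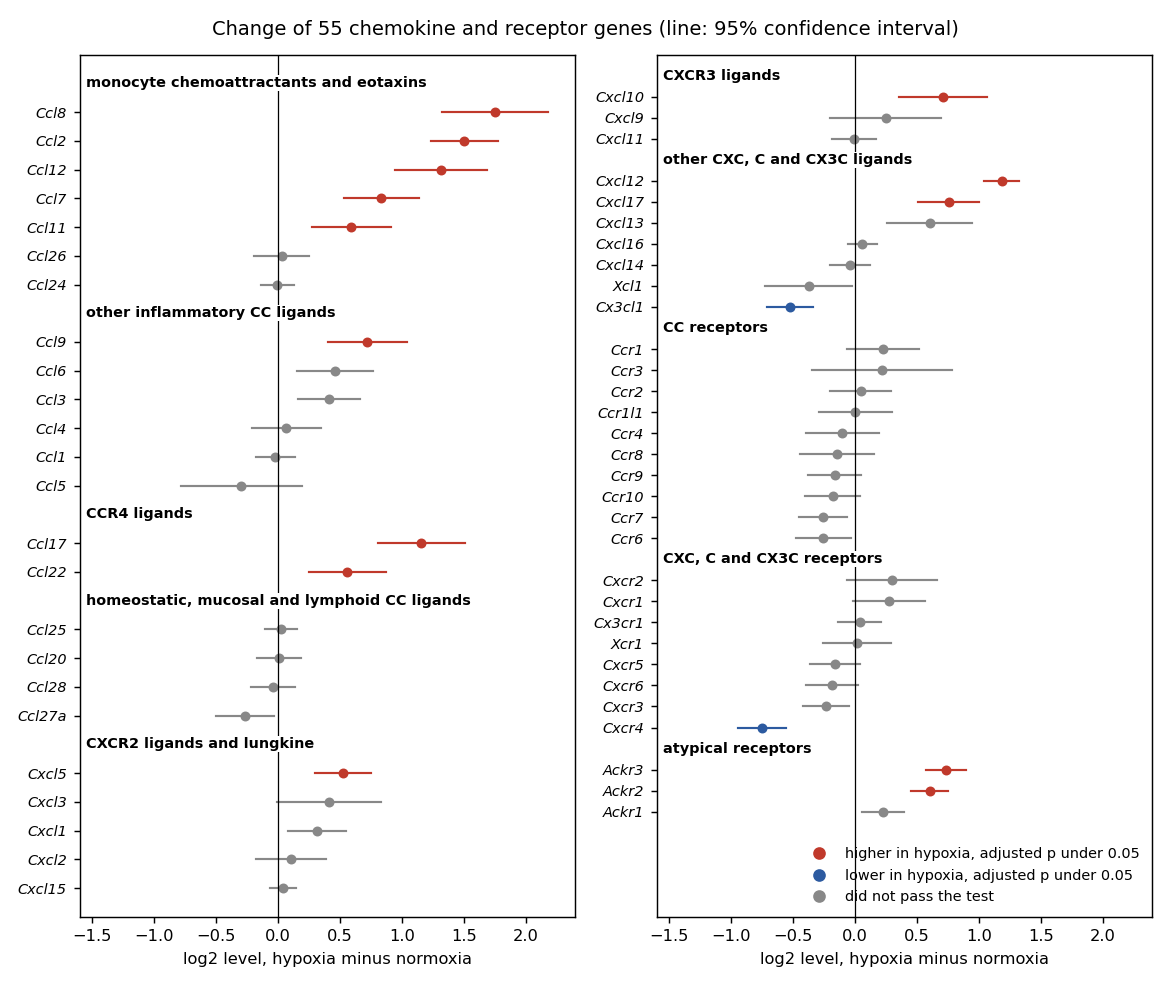
Difference in log2 level between hypoxia and normoxia (horizontal axis) for each of the 55 genes, grouped by role, with the 95% confidence interval from limma as a line (6 mice per group). Red points were higher and blue points lower in hypoxia at an adjusted p under 0.05, gray points did not pass; 12 red points are ligands and 2 are atypical receptors.

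Of the 7 monocyte chemoattractant and eotaxin genes, 5 were higher in hypoxia. Ccl8 (Entrez gene 20307), which encodes a monocyte chemoattractant that in mice also acts on CCR8, had levels from 6.93 to 8.14 with a median of 7.23 in hypoxia, against 5.19 to 6.01 with a median of 5.595 in normoxia. Every hypoxia mouse lay above every normoxia mouse, and hypoxia replicate 4 stood above the other 5. The difference was 1.75 (SE 0.20, 3.36-fold, adjusted p=2.22e-04 from limma), the largest of the 55 genes. Ccl2 (Entrez gene 20296), the main chemoattractant of monocytes through CCR2, had levels from 7.74 to 8.32 with a median of 8.01 in hypoxia, against 6.20 to 6.70 with a median of 6.54 in normoxia. The groups were far apart, with the lowest hypoxia mouse about a whole log2 unit above the highest normoxia mouse. Its difference was 1.50 (SE 0.13, 2.83-fold, adjusted p=2.04e-05 from limma).

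Ccl12 (Entrez gene 20293), a mouse ligand of CCR2, had levels from 6.52 to 7.24 with a median of 6.975 in hypoxia, against 5.12 to 6.17 with a median of 5.54 in normoxia. All 6 hypoxia mice were above the normoxia mice, of which replicate 1 was the highest. The difference was 1.31 (SE 0.17, 2.49-fold, adjusted p=6.20e-04 from limma). Ccl7 (Entrez gene 20306), which attracts monocytes through CCR2, ranged from 6.67 to 7.45 with a median of 6.995 in hypoxia, against 5.98 to 6.37 with a median of 6.25 in normoxia. The groups did not overlap here either, and the hypoxia mice spread more widely. The difference was 0.835 (SE 0.14, 1.78-fold, adjusted p=0.00383 from limma).

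Ccl11 (Entrez gene 20292), eotaxin, the CCR3 ligand that attracts eosinophils, ranged from 7.71 to 8.44 with a median of 7.915 in hypoxia, against 6.94 to 7.86 with a median of 7.405 in normoxia. Normoxia replicate 3 reached into the range of hypoxia, and 4 of the 6 hypoxia mice lay above all normoxia mice. The difference was 0.59 (SE 0.15, 1.51-fold, adjusted p=0.0399 from limma). This call was lost without any 1 of 10 of the 12 arrays (all but hypoxia replicate 1 and normoxia replicate 3), with differences of 0.50 to 0.69 over the 12 runs. The other eotaxin genes did not pass, with differences of 0.03 for Ccl26 (SE 0.10, adjusted p=0.929 from limma) and -0.01 for Ccl24 (SE 0.06, adjusted p=0.974 from limma). Of 10 genes of eosinophils, mast cells and basophils, 9 lay below the median of all clusters and 0 were higher. Gata2, which lay above that median with a mean of 7.77, was lower (-0.43). Cpa3 did not pass (0.26), though all 6 hypoxia mice lay above all normoxia mice, and 6 of the 10 differences were above 0. The mean of that list lay between 4.43 and 4.69 in hypoxia and between 4.40 and 4.62 in normoxia, and its part in the value of Ccl11 was not tested.

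Ccr2, the receptor of CCL2, CCL7 and CCL12 that marks inflammatory monocytes, had levels from 8.17 to 8.59 with a median of 8.395 in hypoxia, against 8.01 to 8.61 with a median of 8.305 in normoxia. Both groups covered nearly the same range. The difference was 0.05 (95% confidence interval -0.20 to 0.29, adjusted p=0.896 from limma). In the same lungs, 5 of 15 marker genes of monocytes and interstitial macrophages were higher and 0 were lower. The mean of that list lay between 8.04 and 8.33 in hypoxia and between 7.76 and 8.05 in normoxia, and none of the 15 lay below the median of all clusters. The 4 with the smallest p were C1qb (difference 0.80), C1qc (0.53), Cd14 (0.55) and F13a1 (0.41). Ly6c2 (0.03), Plac8 (0.03), Csf1r (-0.04) and Chil3 (-0.02) of the same list did not pass, and 12 of the 15 differences were above 0. The part of this list in the differences of these ligands was not tested.

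Both ligands of CCR4, a receptor of type 2 helper and regulatory T cells, were higher in hypoxia. Ccl17 (Entrez gene 20295), a product of dendritic cells and airway epithelium, ranged from 7.63 to 8.66 with a median of 8.24 in hypoxia, against 6.80 to 7.39 with a median of 7.015 in normoxia. The groups did not overlap. The difference was 1.16 (SE 0.16, 2.23-fold, adjusted p=0.00108 from limma). Ccl22 (Entrez gene 20299), a product of dendritic cells and macrophages, ranged from 7.29 to 8.21 with a median of 7.61 in hypoxia, against 6.83 to 7.29 with a median of 7.095 in normoxia. Hypoxia replicate 1 was level with normoxia replicate 5, and the other 5 hypoxia mice lay above all normoxia mice.

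The difference of Ccl22 was 0.56 (SE 0.14, 1.47-fold, adjusted p=0.0435 from limma). Its call was lost without any 1 of 8 arrays (hypoxia replicates 2, 4 and 5 and normoxia replicates 1, 2, 3, 4 and 6), with differences of 0.45 to 0.63 over the 12 runs. Ccr4, their receptor, had a difference of -0.10 (95% confidence interval -0.40 to 0.19, adjusted p=0.790 from limma). Of 9 measured dendritic cell markers, 0 were higher and Siglech, of plasmacytoid dendritic cells, was lower (-0.30). The mean of the list lay between 6.44 and 6.49 in hypoxia and between 6.40 and 6.52 in normoxia, and 2 of the 9 lay below the median of all clusters. Of the airway secretory list, 5 of 8 genes were higher and 1 was lower, and of the monocyte and interstitial macrophage list 5 of 15 were higher. Of 9 alveolar macrophage genes, Ctsk was higher (0.71) and Siglecf was lower (-0.47), with a mean of the list between 7.43 and 7.58 in hypoxia and between 7.42 and 7.75 in normoxia. The median difference of that list was -0.25, with 2 of the 9 above 0, and 7 had an unadjusted p under 0.05 from limma. The part of these 4 lists in the differences of Ccl17 and Ccl22 was not tested.

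Of the 6 other inflammatory CC ligands, which act largely on receptors such as CCR1 and CCR8, only Ccl9 passed. Ccl9 (Entrez gene 20308), a mouse CCR1 ligand made by myeloid cells, ranged from 7.55 to 8.21 with a median of 7.73 in hypoxia, against 6.68 to 7.45 with a median of 7.055 in normoxia. The groups lay close to each other and did not overlap. The difference was 0.72 (SE 0.15, 1.65-fold, adjusted p=0.0134 from limma). Its neighbours Ccl6 and Ccl3, which encode further ligands of CCR1, did not pass. Ccl3 had a difference of 0.41 (SE 0.12, adjusted p=0.0666 from limma), and passed without normoxia replicate 5, where the difference was 0.47. Ccl6 had a difference of 0.46 (SE 0.14, adjusted p=0.0969 from limma). Ccl4 (0.07), Ccl1 (-0.02) and Ccl5 (-0.30), which attracts T cells and had its widest spread in normoxia (SD 0.59, n=6), did not pass.

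None of the 4 CC ligands of mucosal and lymphoid tissue passed in limma (1 had an unadjusted p under 0.05, and 0 passed by the ordinary analysis of variance). Ccl27a, which acts on CCR10, had a difference of -0.27 (SE 0.11, adjusted p=0.226 from limma). Ccl28, a mucosal ligand of the same receptor, had -0.04 (SE 0.08, adjusted p=0.865 from limma). Ccl25, the ligand of CCR9, and Ccl20, the ligand of CCR6, had differences of 0.03 and 0.01.

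Of the 5 genes of the ligands that attract neutrophils, 1 passed, and all 5 differences were above 0, beside 10285 of the 22180 genes. Cxcl1, Cxcl2, Cxcl3 and Cxcl5 lay below the median of all clusters. Cxcl5 (Entrez gene 20311), a CXCR2 ligand of lung epithelium, ranged from 4.87 to 5.40 with a median of 5.24 in hypoxia, against 4.40 to 4.90 with a median of 4.665 in normoxia. Hypoxia replicate 6 lay within the range of normoxia and the other 5 lay above it. The difference was 0.53 (SE 0.10, 1.44-fold, adjusted p=0.0109 from limma). Cxcl1, the keratinocyte chemoattractant, had a difference of 0.315 (SE 0.11, adjusted p=0.147 from limma), and Cxcl3 one of 0.41 (SE 0.19, adjusted p=0.316 from limma). Cxcl2 had a difference of 0.11 (SE 0.13, adjusted p=0.770 from limma). Cxcl15, lungkine, a chemokine of the lung epithelium, had the highest level of the 55 genes' clusters, at 12.56 ± 0.06 in hypoxia and 12.52 ± 0.06 in normoxia (SD, n=6 each). Its difference was 0.04 (95% confidence interval -0.07 to 0.15, adjusted p=0.768 from limma).

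The neutrophil receptors did not pass. Cxcr2 ranged from 7.27 to 7.71 with a median of 7.46 in hypoxia, against 6.91 to 7.97 with a median of 7.02 in normoxia. Normoxia replicate 4 was the highest of all 12 mice, and the other 5 normoxia mice lay at 7.34 or below. The difference was 0.30 (SE 0.17, adjusted p=0.412 from limma), and without normoxia replicate 4 it was 0.46 and passed (adjusted p=0.0343 from limma). Cxcr1 had a difference of 0.28 (SE 0.13, adjusted p=0.332 from limma). Of 12 neutrophil markers, 0 passed in limma (1 had an unadjusted p under 0.05, and 0 passed by the ordinary analysis of variance). Of their 12 differences, 10 were above 0, beside 10285 of the 22180 genes, and the median of the list was 0.145. The mean of that list lay between 6.53 and 6.96 in hypoxia and between 6.29 and 6.74 in normoxia, and 5 of the 12 lay below the median of all clusters. The part of this list in the values of Cxcr1, Cxcr2 and their ligands was not tested.

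Of the 3 genes named for ligands of CXCR3, the interferon-induced chemokines that attract activated T and NK cells, 1 passed. Cxcl10 (Entrez gene 15945) ranged from 6.00 to 6.77 with a median of 6.135 in hypoxia, against 5.14 to 6.10 with a median of 5.48 in normoxia. Normoxia replicate 5 reached the level of the lower hypoxia mice, and hypoxia replicate 4 was the highest of all mice. The difference was 0.71 (SE 0.16, 1.63-fold, adjusted p=0.0278 from limma). The call was lost without hypoxia replicate 2 or without normoxia replicate 2, 3, 4 or 6, with differences of 0.60 to 0.82 over the 12 runs. Cxcl9 (0.25, SE 0.21, adjusted p=0.626 from limma) and Cxcl11 (-0.01, adjusted p=0.986 from limma) did not pass, and neither did the receptor gene Cxcr3 (-0.24, SE 0.09, adjusted p=0.168 from limma). Cxcl11 was not among the protein-coding genes of RefSeq that were used for gene order, so its value may not stand for a working ligand.

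Cxcl12 and its receptors were all past the threshold, in different directions. Cxcl12 (Entrez gene 20315), which retains and guides progenitor, stromal and immune cells, ranged from 10.16 to 10.46 with a median of 10.24 in hypoxia, against 8.91 to 9.24 with a median of 9.09 in normoxia. The mice of each group lay within a narrow band, and the bands were far apart. The difference was 1.18 (SE 0.07, 2.27-fold, adjusted p=6.64e-07 from limma), with the smallest p of the 55 genes. Cxcr4 (Entrez gene 12767), the signaling receptor of CXCL12, ranged from 7.47 to 7.99 with a median of 7.70 in hypoxia, against 8.35 to 8.60 with a median of 8.465 in normoxia. Every hypoxia mouse lay below every normoxia mouse. Its difference was -0.75 (SE 0.09, 1.68-fold lower, adjusted p=2.90e-04 from limma), and it was the only one of 18 signaling receptors that passed.

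Ackr3 (Entrez gene 12778), the atypical receptor that removes CXCL12, ranged from 7.68 to 7.99 with a median of 7.80 in hypoxia, against 6.86 to 7.20 with a median of 7.13 in normoxia. The groups did not overlap, and the difference was 0.73 (SE 0.07, 1.66-fold, adjusted p=1.02e-04 from limma). Stromal marker genes differed in the same lungs, with 4 of 8 fibroblast genes and 5 of 8 genes of smooth muscle and pericytes higher and 0 lower. Among them were the collagen genes Col3a1 (1.12), Col1a1 (0.87) and Col1a2 (1.003) and the fibroblast gene Pi16 (0.53). Of the smooth muscle and pericyte list, Acta2 (1.24), Tagln (1.11), Cspg4 (0.72) and Myh11 (0.67) had the smallest p. The mean of the fibroblast list lay between 9.70 and 9.80 in hypoxia and between 9.18 and 9.39 in normoxia, and that of the smooth muscle and pericyte list between 8.999 and 9.259 in hypoxia and between 8.36 and 8.63 in normoxia. Of 8 endothelial genes, Vwf (0.41) and Emcn (0.31) were higher and Kdr (-0.39) and Tek (-0.27) were lower, with a mean of the list between 10.2 and 10.4 in both groups. By the ordinary analysis of variance, 3 of these 4 passed and Emcn did not. No gene of these 3 lists lay below the median of all clusters, and their part in the differences of Cxcl12, Cxcr4 and Ackr3 was not tested.

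**Figure D2:**
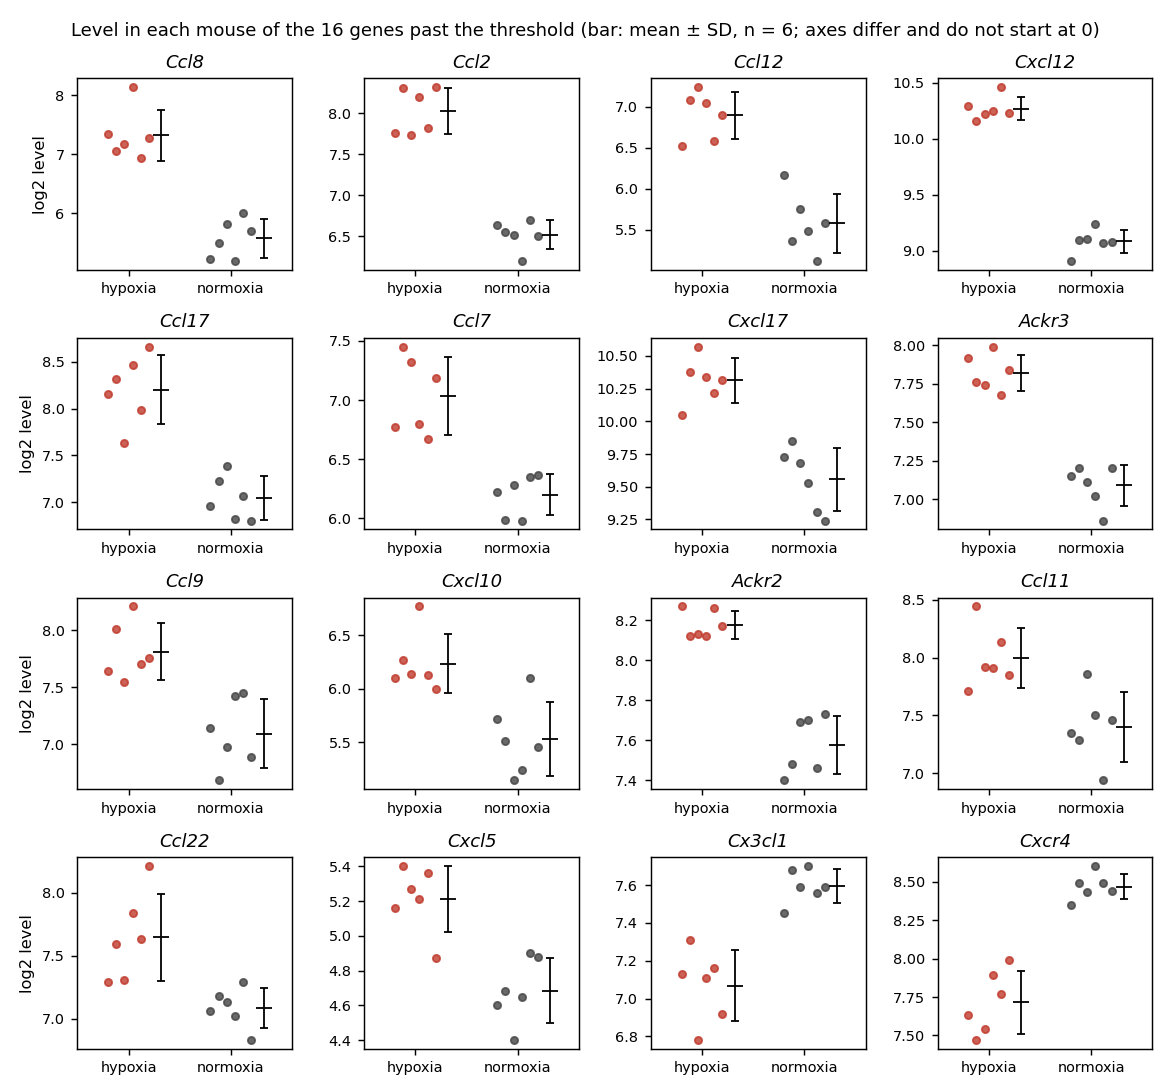
Log2 level (vertical axis, which differs between panels and does not start at 0) in each of the 6 hypoxia and 6 normoxia mice for the 16 genes that passed, with the mean and SD beside the points. Hypoxia and normoxia points overlap for Ccl11, Ccl22, Cxcl5 and Cxcl10, and in the other 12 panels they do not.

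Among the other CXC, C and CX3C ligands, Cxcl17 was higher and Cx3cl1 lower. Cxcl17 (Entrez gene 232983), a mucosal chemokine of airway epithelium, ranged from 10.05 to 10.57 with a median of 10.33 in hypoxia, against 9.24 to 9.85 with a median of 9.605 in normoxia. The groups did not overlap. The difference was 0.76 (SE 0.11, 1.69-fold, adjusted p=0.00191 from limma). Of 8 airway secretory markers, 5 were higher, among them Agr2 (2.19), Scgb3a1 (1.235), Muc5b (1.51) and Bpifb1 (1.83), and 1, Cyp2f2 (-0.32), was lower. The mean of this list lay between 10.2 and 10.9 in hypoxia and between 9.44 and 9.86 in normoxia, no gene of it lay below the median of all clusters, and its part in the difference of Cxcl17 was not tested.

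Cx3cl1 (Entrez gene 20312), fractalkine, a membrane-bound chemokine of endothelium and epithelium, ranged from 6.78 to 7.31 with a median of 7.12 in hypoxia, against 7.45 to 7.70 with a median of 7.59 in normoxia. Every hypoxia mouse lay below every normoxia mouse. The difference was -0.53 (SE 0.08, 1.44-fold lower, adjusted p=0.00305 from limma). Cx3cr1, its receptor on patrolling monocytes and macrophages, had a level of 9.05 ± 0.08 in hypoxia and 9.01 ± 0.17 in normoxia (SD, n=6 each). Its difference was 0.04 (95% confidence interval -0.14 to 0.21, adjusted p=0.878 from limma).

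Cxcl13, the CXCR5 ligand that attracts B cells, lay just outside the threshold. Its levels ranged from 7.17 to 8.14 with a median of 7.585 in hypoxia, against 6.78 to 7.34 with a median of 7.015 in normoxia, and 5 of 6 hypoxia mice were above all normoxia mice. The difference was 0.60 (SE 0.16, adjusted p=0.0504 from limma), and it passed without hypoxia replicate 1, where it was 0.70. Just inside the threshold lay Ccl22. Xcl1, lymphotactin of T and NK cells, had a difference of -0.37 (SE 0.16, adjusted p=0.267 from limma), and Cxcl16 (0.06) and Cxcl14 (-0.04) did not pass.

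None of the 10 CC receptors passed in limma (2 had an unadjusted p under 0.05, and 0 passed by the ordinary analysis of variance). The smallest p were those of Ccr7, which guides lymphocytes and dendritic cells to lymph nodes (-0.26, SE 0.09, adjusted p=0.153 from limma), and Ccr6, of lymphocytes and dendritic cells (-0.26, SE 0.10, adjusted p=0.219 from limma). The remaining CC receptors lay between -0.18 for Ccr10 and 0.22 for Ccr1. Ccr1l1, Ccr3 and Ccr4 had the lowest levels of the 55 clusters, with means over all 12 mice of 3.40, 3.59 and 3.75, below the median of 5.91 over all clusters. In all, 20 of the 55 genes lay below that median, of which 2 passed (Cxcl5 and Cxcl10).

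Among markers of cells that carry such receptors, 0 of 8 T cell genes were higher and Cd3g (-0.61) and Il7r (-0.53) were lower, and of 7 NK cell genes Klre1 was lower (-0.53). By the ordinary analysis of variance, 0 genes of these 2 lists passed. None of the differences in either list was above 0, with medians of -0.40 for T cells and -0.305 for NK cells. In limma, 7 of the 8 T cell genes and 5 of the 7 NK cell genes had an unadjusted p under 0.05. The mean of the T cell list lay between 6.36 and 6.66 in hypoxia and between 6.73 and 7.29 in normoxia, and that of the NK cell list between 6.17 and 6.43 in hypoxia and between 6.32 and 7.03 in normoxia. In each of these 2 lists 1 gene lay below the median of all clusters. Of 7 B cell genes, 0 passed in limma, though 3 had an unadjusted p under 0.05. None of the B cell differences was above 0, and their median was -0.31. The part of the T, NK and B cell lists in the values of the receptors was not tested. Ccr9, Cxcr6, Cxcr5 and Ccr10, receptors of lymphocytes, had differences of -0.17, -0.19, -0.16 and -0.18, and did not pass. Xcr1, of cross-presenting dendritic cells, had 0.02.

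Of the 3 atypical receptors, Ackr2 was higher beside Ackr3. Ackr2 (Entrez gene 59289), a scavenger of inflammatory CC chemokines that lymphatic endothelium carries, ranged from 8.12 to 8.27 with a median of 8.15 in hypoxia, against 7.40 to 7.73 with a median of 7.585 in normoxia. The 6 hypoxia mice lay close together above the normoxia mice. The difference was 0.60 (SE 0.07, 1.52-fold, adjusted p=2.70e-04 from limma). Ackr1, which binds chemokines on venules and red cells, had a difference of 0.225 (SE 0.08, adjusted p=0.158 from limma). All 4 measured erythroid genes were higher, namely Slc25a37 (0.95), Slc4a1 (0.83), Trim10 (0.63) and Fech (0.565), and 2 of the 4 passed by the ordinary analysis of variance. The mean of the erythroid list lay between 7.19 and 8 in hypoxia and between 6.75 and 7.095 in normoxia, 1 of the 4 lay below the median of all clusters, and their part in the value of Ackr1 was not tested.

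Of 6 lymphatic endothelial markers, Prox1 was higher (0.65) and Lyve1 was lower (-0.70). The mean of the list lay between 7.51 and 7.75 in hypoxia and between 7.31 and 7.69 in normoxia, 1 of the 6 lay below the median of all clusters, and their part in the difference of Ackr2 was not tested. The plot of marker genes gives each list beside the others.

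**Figure D3:**
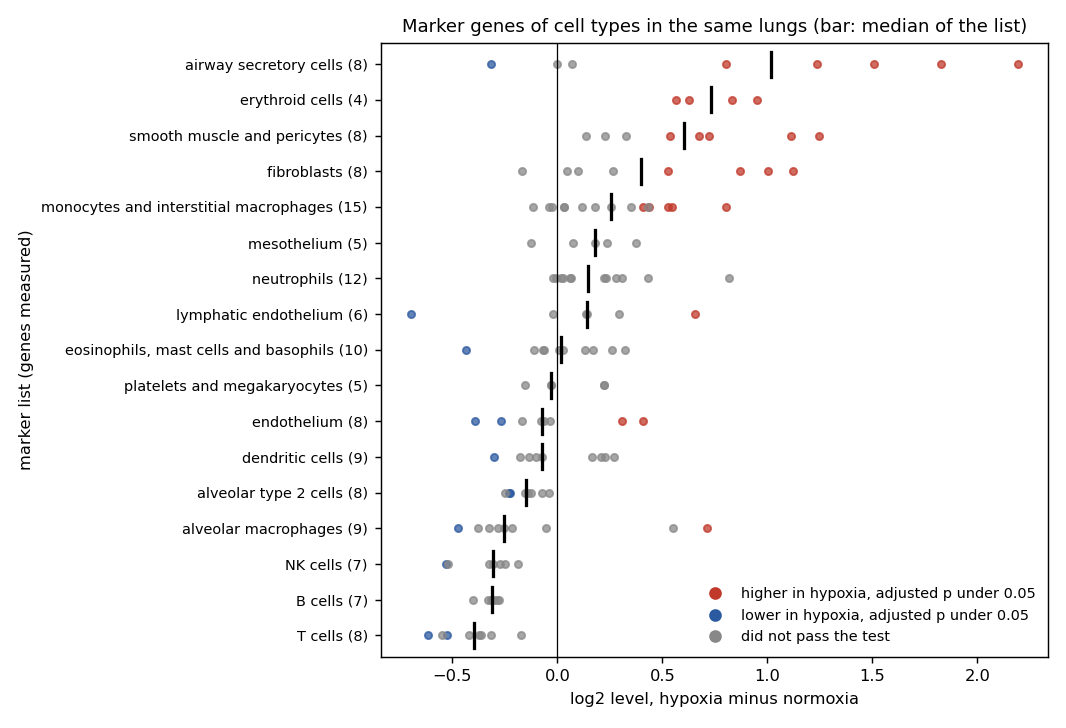
Difference in log2 level between hypoxia and normoxia (horizontal axis) for each measured marker gene (point) of 17 cell type lists (rows), with the median of each list as a bar. Red points were higher and blue points lower in hypoxia at an adjusted p under 0.05; 5 of 15 monocyte and interstitial macrophage genes and 0 of 12 neutrophil genes are red.

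Genes that lie next to each other did not all differ alike. On chromosome 11, Ccl2, Ccl7, Ccl11, Ccl12 and Ccl8 follow each other with no other protein-coding gene of the RefSeq table between them, and all 5 were higher. Ccl1, the next gene in that row, had a difference of -0.02 (95% confidence interval -0.18 to 0.14). In a second row on chromosome 11, made up of Ccl5, Ccl9, Ccl6, Ccl3 and Ccl4, Ccl9 alone passed. On chromosome 8, Cx3cl1 lies between Ccl22 and Ccl17, and was lower in hypoxia while both of its neighbours were higher. On chromosome 5, Cxcl5 passed and its near neighbours Cxcl3, Cxcl15, Cxcl1 and Cxcl2 did not. On chromosome 9, none of the receptor genes Ccr9, Cxcr6, Xcr1, Ccr1, Ccr1l1, Ccr3 and Ccr2 passed (1 other protein-coding gene lies between Ccr9 and Cxcr6), with differences between -0.19 and 0.22. Ccl2, Ccl7, Ccl8, Ccl11 and Ccl12 are related in sequence, and whether probes of one also bind RNA of another was not examined.

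**Figure D4:**
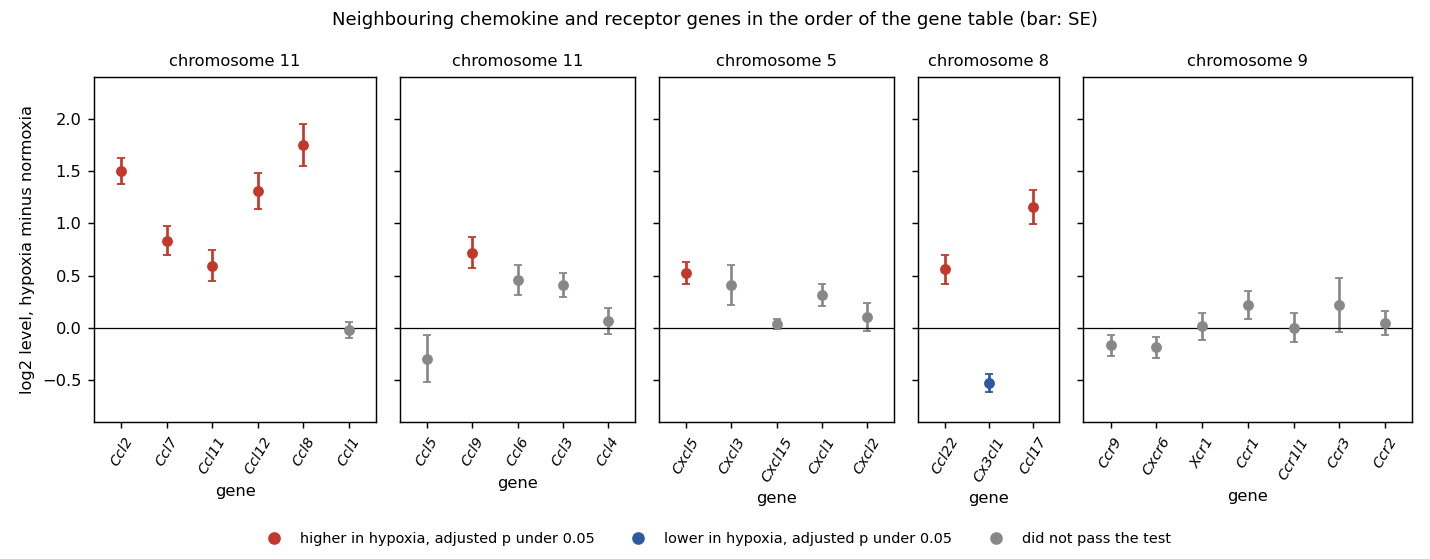
Difference in log2 level between hypoxia and normoxia (vertical axis, with the SE from limma as a bar) for neighbouring chemokine and receptor genes in their order along 4 chromosomes. Red points were higher and blue points lower in hypoxia at an adjusted p under 0.05; 5 of the 6 genes in the row on the left are red, and Cx3cl1 is the blue point between Ccl22 and Ccl17.

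Other genes of the chemokine system, listed by their function, were counted in the same fit. Of 5 measured genes of other chemokines and related receptors, Cmklr1, the chemerin receptor of macrophages and NK cells, was higher (0.28, SE 0.07, adjusted p=0.0440 from limma). Ackr4, the scavenger of CCL19, CCL21 and CCL25, was lower, with a level of 4.99 ± 0.28 in hypoxia and 5.55 ± 0.10 in normoxia (SD, n=6 each). Its difference was -0.56 (SE 0.11, adjusted p=0.0131 from limma), so that this scavenger differed in the opposite direction to Ackr2 and Ackr3. The mean level of Ackr4 over all 12 mice, 5.27, lay below the median of all clusters, and those of Ackr2 and Ackr3 lay above it.

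Of 28 genes of G protein and arrestin signaling, 1 was higher and 2 were lower. Plcb2, a phospholipase of leukocytes that acts below these receptors, had levels from 6.66 to 6.98 in hypoxia, against 7.34 to 7.61 in normoxia, with a difference of -0.59 (SE 0.07). Ptk2b, a tyrosine kinase of leukocyte migration, was also lower (-0.35, SE 0.07, adjusted p=0.00961 from limma). Rgs16, which shortens G protein signaling, was higher (0.54, SE 0.11, adjusted p=0.0152 from limma). Its mean level over all 12 mice, 5.8, lay below the median of all clusters.

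Of 11 enzymes that cut or shed chemokines, 2 were higher and 1 was lower. Dpp4, the membrane peptidase that trims CXCL12 and other chemokines, had levels from 9.06 to 9.30 in hypoxia, against 9.50 to 9.80 in normoxia, with a difference of -0.46 (SE 0.06). Mmp2, a gelatinase that cleaves CXCL12 and CCL7, had levels from 8.90 to 9.32 in hypoxia, against 8.34 to 8.73 in normoxia, with a difference of 0.56 (SE 0.09). Ctsk, a cathepsin, was higher by 0.71 (SE 0.10). For none of these 3 genes did the groups overlap. Adam10 and Adam17, which release CX3CL1 and CXCL16 from the membrane, were among the 8 that did not pass.

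Of 17 genes of leukocyte capture and adhesion, 4 were higher and 0 were lower. They were Cd34, a sialomucin of vessels (0.53, SE 0.06), Itgb1, an integrin chain (0.28, SE 0.05), Icam2, an endothelial integrin ligand (0.28, SE 0.06), and Selp, the selectin that starts rolling (0.31, SE 0.07). The list as a whole did not lean upward, with 8 of the 17 differences above 0 and a median of -0.002. Of 24 genes of upstream cytokines and the NF-kappaB and STAT pathways, 1 passed. Il6, an inflammatory cytokine, had levels from 3.69 to 4.95 in hypoxia, against 3.05 to 3.72 in normoxia, with a difference of 0.78 (SE 0.20, adjusted p=0.0443 from limma). Its mean level over all 12 mice, 3.79, lay below the median of all clusters, and by the ordinary analysis of variance 0 of the 24 passed.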

How the data were processed

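RNA of 12 left lung lobes (6 hypoxia and 6 normoxia mice) was amplified, labeled with biotin and measured on Mouse Gene 2.0 ST arrays. The authors processed the scans with RMA in the Affymetrix Expression Console (versions not given in the sources used here), so the deposited values are background-corrected, normalized and summarized levels on a log2 scale, in steps of 0.01. RMA brings all arrays to a common distribution, so changes are relative to the other genes of an array. No background probes were used here.

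Of 41345 rows, 190 control rows were left out. Of the other 41155 transcript clusters, 23521 carried 1 symbol, 1820 several and 15814 none that was used here. Where a gene had several clusters, the one with the highest mean of all 12 arrays was used. Levels were compared by lmFit and eBayes of limma 3.58.1 (R 4.3.3) over all clusters, two-sided, with Benjamini-Hochberg adjustment, a threshold of 0.05, and no filter on dim clusters. Separate mice were the replicates, and no array or scan batch was recorded in the labels. The script was tested on simulated arrays. Tables and plots used Python 3.11.15, numpy 2.4.6, pandas 2.3.3 and matplotlib 3.10.9. The build behind the array annotation is not given in the sources used here, so RefSeq (GRCm38.p6) served for names, gene order and promoter windows, and coordinates are those of RefSeq.

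The genes, the lists and the tests were chosen with earlier results of these data known. The text names every gene of the 55 that passed, the 2 with the smallest p among the rest of each role group, the CCR2 and CXCR2 ligands and receptors, the 3 highest and 3 lowest genes by level, and genes of the other lists that passed (for a cell type, at most the 4 with the smallest p). Cyp2f2, further genes of the 55 and those named without a pass from the other lists were chosen after their values were seen. The alternatives were an analysis of variance, an intensity trend, array weights, quantile normalization, a filter on dim clusters, a replicate block, omission of single arrays, the mean of a gene's clusters, a stricter threshold and, chosen after seeing the data, the second principal component as a covariate.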

Additional observations from a re-analysis of the deposited data

Results flagged for a closer look

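In groups of 6 mice, 1 mouse lay apart from the other 5 (Dixon's test) in 10 of 110 groups over the 55 genes, where chance flags about 1 in 20 groups. Of genes that passed, Ccl8 was 8.14 in hypoxia replicate 4, with the other hypoxia mice between 6.93 and 7.35, and Cxcl10 was 6.77 in hypoxia replicate 4, with the others between 6.00 and 6.27. Both are high values in the same mouse. Without it, the calls of Ccl8 and Cxcl10 were kept.

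In normoxia replicate 5, the T and NK cell chemokine gene Xcl1 was 7.18 (others 6.47 to 6.66) and the interferon-induced Cxcl9 was 6.96 (others 5.86 to 6.17). Hypoxia replicate 5 had the highest hypoxia level of Ccr1l1, at 3.75 (others 3.29 to 3.36), and of Xcr1, at 6.51 (others 5.76 to 6.00). Hypoxia replicate 6 had the lowest hypoxia level of Cxcr3, at 5.64 (others 6.00 to 6.15), and of Ccl25, at 5.81 (others 6.02 to 6.08). Ccr9 was 6.09 in normoxia replicate 6 (others 5.82 to 5.91) and Ccl26 was 4.52 in normoxia replicate 3 (others 4.18 to 4.29).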

How the results depend on the processing

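Both lower genes, Cxcr4 and Cx3cl1, passed under every alternative run. The count of higher genes was 14 and lay between 10 and 16 over the alternatives that kept the threshold, and between 11 and 15 with single arrays left out. At an adjusted p under 0.01, 9 genes were higher and 2 lower, with 800 of all clusters called. With the replicate block, 961 clusters were called against 1840 without it, 10 genes were higher and 2 lower, and the calls of Ccl11, Ccl22, Cxcl5 and Cxcl10 were lost. Arrays of the same number showed little shared deviation over all clusters (correlations from -0.01 to 0.07). A correlation over all clusters can miss pairing that acts on some genes, so whether the numbers pair the mice was not settled. The analysis of variance lost Ccl11, Ccl22 and Cxcl10. Cxcl13 was gained with array weights, an intensity trend, quantile normalization, the filter on dim clusters and the second principal component as a covariate. The filter tested 35 of the 55 genes and also gained Ccl3 and Ccl6. Clusters called lay between 1374 and 1577 with single arrays left out. No cluster with several symbols held only genes of the 55, so counting those gave no other value. Dim clusters limit what can be seen for the 20 genes under the median level.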

Other observations

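Some chemokine genes share their clusters with other symbols and are not among the 55. All 9 clusters annotated with Ccl21a, a CCR7 ligand of lymphatic vessels, and other symbols were higher in hypoxia, with differences of 0.32 to 0.33. They hold 5 distinct sets of values, with mean levels between 11.1 and 11.5 in hypoxia and between 10.8 and 11.1 in normoxia. Of 13 such clusters with Ccl19, another CCR7 ligand, 1 was lower and 0 were higher, with differences of -0.52 to -0.02. Of 11 with Ccl27, 5 were lower, with differences of -0.31 to -0.18. Since each cluster carries several symbols, the gene behind these levels was not assigned.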
